A study of Mus musculus with 8 samples.

Results

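Open chromatin after 12 hours of Klf4 induction was compared with open chromatin at 0 hours in mouse MLL-AF9 leukaemia cells, with 2 ATAC-seq libraries at 12h and 2 at 0h. Peaks on chromosomes 1 to 19 and X of these 4 lists were merged where they overlapped by at least 1 bp, which gave 30065 regions, beside 32720 when all 8 lists of the series were merged. A region was gained when both 12h lists and neither 0h list had a peak in it, and lost in the reverse case. There were 1320 gained and 473 lost regions, and 11490 regions had a peak in all 4 lists. In these shared regions the percentile of a peak's fold enrichment within its own list was compared between the times.

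All groups were GFP-positive leukaemia cells sorted from the bone marrow of leukaemic mice, and all carried the MLL-AF9 fusion and a TetO-Klf4 construct that doxycycline switches on. The labels give the line as "C57BL/7". The 12h cells were taken 12 hours into the time course and the 0h cells at its start. Nothing in the labels tells if doxycycline was given to the 0h cells, which promoter drives the transactivator, or whether the 2 libraries of a time came from separate mice, so the spread between libraries may be technical. The 6h and 24h libraries, 2 at each time, took no part in the calls and were used to look at the same regions at other times.

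In ATAC-seq a transposase cuts and tags DNA that is free of nucleosomes, so a peak marks a promoter, enhancer or other open site. MLL-AF9 is a fusion protein that keeps stem cell genes of the HoxA cluster and Meis1 active in acute myeloid leukaemia. KLF4 is a zinc-finger transcription factor of the Krüppel-like family that binds GC-rich CACCC and related elements, promotes monocyte differentiation and restrains proliferation in blood cells, and is one of the factors used to reprogram cells to pluripotency. In a bulk library a site open in fewer cells and a site less open in each cell cannot be told apart.

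The lists held 21895 and 19722 peaks at 12h and 21756 and 15638 at 0h. Mean peak number was 20808.5 ± 1536.54 at 12h and 18697 ± 4326.08 at 0h (SD, n = 2 each). The difference did not pass a two-sided exact permutation test (p = 0.667), and the smallest p this design allows is 0.333. The second 0h library stood apart: its background was 1.5 tags per kb, against 2.63 and 2.23 in the 12h libraries and 2.67 in the first 0h library. Its median peak was 282 bp wide, against 398 and 402 bp at 12h and 460 bp in the first 0h library. A peak missing there therefore says least, and the counts of regions and of genes per list are given with and without it. Peaks lay within 10 kb of Spi1, Cd34, Hoxa9, Meis1, Myb and Elane in all 4 lists, which are genes of myeloid progenitors or targets of the fusion. No peak lay within 10 kb of Mpo, the myeloperoxidase of granulocyte progenitors, in the 12h lists, against 2 and 1 peaks in the 0h lists. By the nearest-gene rule below, however, neither Mpo nor another granulocyte gene had a lost region. Elane had 1 and 1 peaks at 12h, against 3 and 2 at 0h. Kit had 1 and 1, against 1 and 0, and Csf1r 0 and 0, against 1 and 0. Monocyte and macrophage markers with a peak within 10 kb numbered 21 and 23 of 30 at 12h, against 26 and 18 of 30 at 0h. For granulocyte markers the counts were 14 and 12 of 22 at 12h, against 12 and 10 of 22 at 0h.

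The promoter windows of 4 genes are shown first because a gained or lost region overlaps the gene start or the bases before it. Each is a RefSeq window of 300 bases on GRCm38 (mm10), from 250 bases before to 50 bases after the annotated start, written 5′ to 3′ on the gene's strand. Capitals mark the bases inside the region. Commd4, a COMM-domain protein, and Haus5, a subunit of the augmin complex of the spindle, had gained regions. Yae1d1 and 1110051M20Rik had lost regions.
Commd4, chr9:57158250-57158549, minus strand: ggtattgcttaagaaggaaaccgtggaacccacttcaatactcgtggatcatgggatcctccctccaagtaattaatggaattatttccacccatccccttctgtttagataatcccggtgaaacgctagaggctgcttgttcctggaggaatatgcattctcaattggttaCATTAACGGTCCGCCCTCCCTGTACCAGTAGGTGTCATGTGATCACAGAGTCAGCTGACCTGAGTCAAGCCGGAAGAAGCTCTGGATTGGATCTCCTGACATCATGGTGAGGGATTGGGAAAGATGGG
Haus5, chr7:30664945-30665244, minus strand: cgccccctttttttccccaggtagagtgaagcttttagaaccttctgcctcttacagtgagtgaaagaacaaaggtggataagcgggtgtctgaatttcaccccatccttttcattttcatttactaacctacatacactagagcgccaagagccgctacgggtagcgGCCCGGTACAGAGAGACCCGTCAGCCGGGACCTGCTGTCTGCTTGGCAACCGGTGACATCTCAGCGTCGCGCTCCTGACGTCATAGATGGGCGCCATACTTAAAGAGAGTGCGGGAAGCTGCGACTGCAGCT
Yae1d1, chr13:17993302-17993601, minus strand: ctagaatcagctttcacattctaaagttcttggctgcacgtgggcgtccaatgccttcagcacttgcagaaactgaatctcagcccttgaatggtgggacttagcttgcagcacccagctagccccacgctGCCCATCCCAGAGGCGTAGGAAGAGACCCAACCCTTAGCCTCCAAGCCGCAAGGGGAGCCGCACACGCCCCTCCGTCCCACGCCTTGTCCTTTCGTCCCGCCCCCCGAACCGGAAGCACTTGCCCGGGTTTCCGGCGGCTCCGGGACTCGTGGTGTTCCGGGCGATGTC
1110051M20Rik, chr2:91444665-91444964, minus strand: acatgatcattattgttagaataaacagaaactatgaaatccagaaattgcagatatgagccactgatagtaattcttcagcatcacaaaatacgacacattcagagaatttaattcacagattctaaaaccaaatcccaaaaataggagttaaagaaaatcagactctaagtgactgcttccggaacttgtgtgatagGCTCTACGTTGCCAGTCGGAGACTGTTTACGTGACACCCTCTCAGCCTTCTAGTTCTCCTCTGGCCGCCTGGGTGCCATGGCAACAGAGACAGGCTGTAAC

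The gained region at Commd4 (chr9:57158117-57158377) had fold enrichments of 9.7 and 10.5 in the 12h libraries and no peak in either 0h library. The fold is the authors' own value for each peak, the pile-up of tags at the summit over the local background with 1 added to each. Folds of different libraries have no common scale, so their sizes are not a measure of change between times. At Haus5 (chr7:30664861-30665076) the folds were 8.87 and 10.6 at 12h, with no peak at 0h. No peak was called at Haus5 in any 6h or 24h list, and the Commd4 region had a peak in 1 list of 6h and 1 list of 24h. The lost region at Yae1d1 (chr13:17993091-17993470) had no peak at 12h and folds of 9.32 and 8.69 at 0h. Both 24h lists again held a peak there. At 1110051M20Rik (chr2:91444463-91444765) no peak was called at 12h, and the folds were 9.26 and 7.98 at 0h.

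Gained regions made up 4.39% of the 30065 regions and lost regions 1.57%. The regions found in exactly 1 list of each time, 2888 in number, give a scale for peaks that 2 libraries share without sharing a time. Of these, 1430 joined the first 12h and first 0h libraries, 853 the second 12h and first 0h, 375 the first 12h and second 0h, and 230 the second 12h and second 0h libraries. So 1 pairing across times held more regions than the 1320 of the 12h pair, and the pairings with the second 0h library held fewest. A further 9397 regions were in a single list. Just short of a gained call were 3407 regions in both 12h lists and 1 of the 0h lists, and short of a lost call 1090 regions in both 0h lists and 1 of the 12h lists.

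The excess of gained over lost regions depended on the length of the lists. With the 15638 strongest peaks of each list there were 733 gained and 600 lost regions. With peaks of −log10 q of at least 5 there were 1254 gained and 312 lost. Without the second 0h library, where 1 list stands for 0h, there were 1892 gained and 4003 lost regions. Without the first 0h library there were 4176 gained and 1611 lost. A region then needs a single 0h list to be called lost, so these counts are not on the scale of the full comparison. Which of the 2 classes is larger therefore cannot be told apart from the lengths of the lists.

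**Figure D1:**
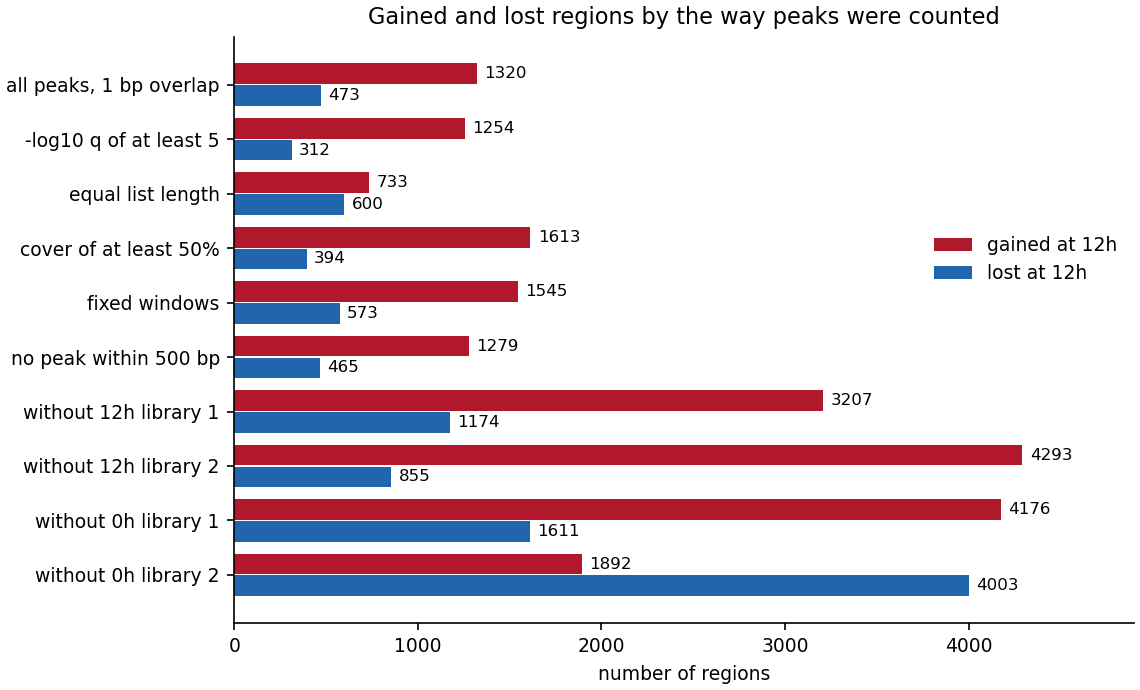
Number of regions (horizontal axis) gained or lost at 12h under each way of counting peaks, with the full comparison in the top row; red bars are gained and blue bars lost regions. Gained regions outnumber lost ones in each row except the last, without the second 0h library, where 1892 were gained and 4003 lost.

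Gained and lost regions were weak peaks far from gene ends, as were regions of 1 list of each time. Of the gained regions, 14.5% (95% Wilson interval 12.7 to 16.6) lay within 1 kb of the start or end of a protein-coding gene, and of the lost regions 12.1% (9.42 to 15.3). The share was 58.5% (57.6 to 59.4) in regions of all 4 lists and 15.7% in regions of 1 list of each time. Gained regions lay inside a gene in 58.4% of cases (55.7 to 61.0), and lost regions in 50.5% (46.0 to 55.0). Gained regions with no gene end within 100 kb made up 9.92% (8.43 to 11.7), and such lost regions 14.2% (11.3 to 17.6). The median distance to the nearest region of all 4 lists was 31.9 kb for gained and 43.0 kb for lost regions. Median width was 346 bp for gained and 347 bp for lost regions, and the median within-list percentile of fold was 27.7 for gained and 27.3 for lost regions. Regions of 1 list of each time lay inside a gene in 53.9% of cases, against 54.6% of all regions. No gene end lay within 100 kb of 11.0% of them. Their median distance to a region of all 4 lists was 36.7 kb, and their median percentile 25.7. The intervals cover counting error only and treat regions as separate, although neighbouring regions share libraries.

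Ranked by within-list percentile, which the choice of leading regions used, the leading gained regions lay mostly outside promoters. The first (chr4:53986780-53987207) had folds of 11.4 and 11.6 at 12h and lay 125 kb from the nearest protein-coding gene end. The region in Gm13277 (chr4:88788473-88788667) followed with 14.9 and 9.37. A region inside Anp32e, which encodes a chaperone that removes the histone variant H2A.Z, had 10.1 and 12.7 at 12h and was called in both 24h lists and neither 6h list. A region 34.8 kb from Rsl24d1, a ribosome biogenesis gene, had folds of 12.0 and 10.5 at 12h and was called in all 4 of the 6h and 24h lists. A region 8.55 kb from Btbd16 had 10.7 and 10.6 at 12h, and 11.1 and 12.7 in the 24h lists. Uimc1, the ubiquitin-binding RAP80 subunit of a BRCA1 complex, held a region with 10.4 and 10.6 at 12h. The others of the leading 12 lay near Larp4b, Msrb2, Khdrbs1 and Rnf157, inside Kcnma1, or 120 kb from any protein-coding gene end (chr16:55691021-55691340). Each had no peak at 0h by the rule of choice.

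Within 1 kb of a gene start or end, the leading gained regions included Mmp8, the neutrophil collagenase (chr9:7567331-7567647). Its folds were 9.22 and 10.8 at 12h, and it was called in all 4 of the 6h and 24h lists, with 7.32 and 9.84 at 24h. Smyd5, a SET and MYND domain protein, had 8.66 and 8.88 at 12h and was likewise called in all 4. Tomm22, a receptor subunit of the mitochondrial import channel, had 8.34 and 9.6 at 12h, and 7.07 and 8.45 at 24h. Ovol2, a zinc-finger repressor of epithelial cells, had 7.65 and 9.99. Rasgrp4, a Ras guanine nucleotide exchange factor of myeloid cells, had 9.98 and 7.68. Hacd4 had 9.82 and 8.34, and Map3k1, a kinase upstream of JNK, 9.26 and 8.17. Map3k1, Hacd4 and Gm13277 had a peak in 1 of the 6h lists and in neither 24h list.

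The leading lost region lay inside Clec1a, 6.83 kb from an end of Clec12b, in the C-type lectin cluster of chromosome 6 (chr6:129434304-129434577). It had no peak at 12h, and folds of 11.3 and 11.3 at 0h. It was still called in both 6h lists, with 8.54 and 7.26, and in neither 24h list. A lost region inside Ppm1h, a phosphatase, had 10.0 and 10.4 at 0h. One inside Dnah6, an axonemal dynein, had 12.0 and 7.78 at 0h and was called in both 6h and neither 24h list. A region 30.1 kb from Wnt11 followed the same course, with 8.34 and 9.29 at 0h. A region 6.61 kb from Usp3, a histone deubiquitinase, had 8.81 and 9.38 at 0h. The others lay far from protein-coding gene ends, in Cds1, in Dnm3, or at Yae1d1.

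At gene starts or ends, lost regions included Kat2a, the histone acetyltransferase GCN5, with no peak at 12h and folds of 7.2 and 7.36 at 0h. Napb, a membrane fusion adaptor, had 9.82 and 6.19 at 0h and was called in both 6h lists with 11.6 and 9.66. Anxa5, annexin A5, had 7.88 and 7.04 at 0h. Ttc28 had 9.82 and 5.77 at 0h, and was called again in both 24h lists with 6.57 and 4.1. Fam168b (10.0 and 6.28 at 0h) was also called in both 24h lists. Zfp850, Tmtc2 and Kcne3 made up the rest, beside Yae1d1 and 1110051M20Rik above.

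**Figure D2:**
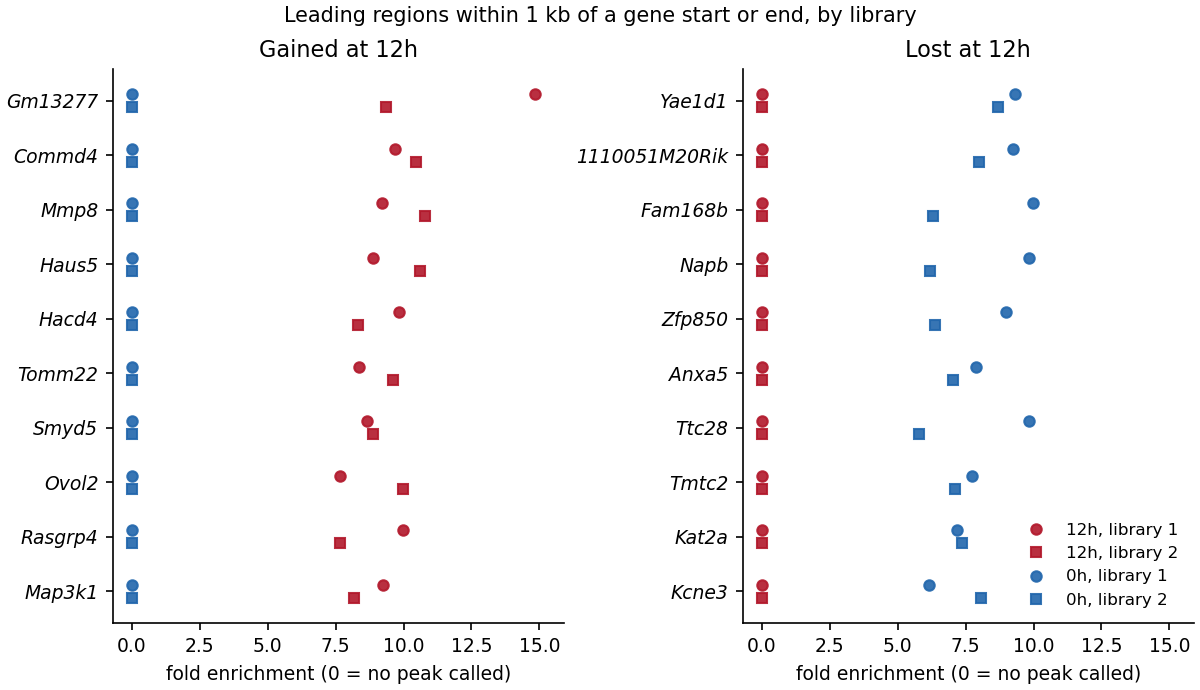
Fold enrichment (horizontal axis, authors' values) of the 10 leading gained and 10 leading lost regions within 1 kb of a gene start or end; each marker is 1 library, red for 12h and blue for 0h, and 0 means that no peak was called. Gained regions reach 14.9 in the 12h libraries (Gm13277), and lost regions reach 10.0 in the 0h libraries (Fam168b); the empty group is at 0 by the rule of choice.

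The 6h and 24h lists did not enter the calls. Of the 1320 gained regions, 31.9% and 30.2% had a peak in the 24h lists (95% intervals 29.4 to 34.5 and 27.8 to 32.8). Of the 473 lost regions, 14.2% and 11.0% had one (11.3 to 17.6 and 8.48 to 14.1). Regions of 1 list of each time lay between, with 21.2% and 19.5%. In the 6h lists the shares were 36.3% and 38.6% for gained, 30.2% and 36.2% for lost, and 32.0% and 34.5% for regions of 1 list of each time. The intervals of gained and lost regions did not overlap in either 24h list and overlapped in both 6h lists. These intervals cover counting error only and treat regions as separate, although all regions come from the same libraries. Whether the shares differ beyond the spread between libraries was not tested. The order of the shares in both 24h lists changed with the libraries used, as given below.

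Gained regions called in both 24h lists numbered 207, or 15.7% (13.8 to 17.7), against 21 lost regions, or 4.44% (2.92 to 6.69). Over all regions this share was 39.2%. Gained regions called in neither 24h list numbered 707 (53.6%), and 403 (30.5%) were in no list of 6h or 24h. Only 89 gained regions were called in all 4 of these lists. Of the lost regions 375 (79.3%) were in neither 24h list, and 73 (15.4%) were still called in both 6h lists. In regions in the lowest range of within-list percentile (under 20.2) the 24h shares were 23.7% and 22.6% for gained and 9.15% and 5.63% for lost regions. In the highest range (above 35.6) they were 42.2% and 40.7% for gained and 19.1% and 16.3% for lost regions. With lists of equal length 32.2% of gained and 13% of lost regions had a peak in both 24h lists. The order turned without a 12h library, when a gained region needs 1 list and a lost region 2. Without the first 12h library the shares in both 24h lists were 7.89% for gained and 14.5% for lost regions, and without the second 6.64% and 9.59%. Without the second 0h library they were 20.03% for gained and 1.42% for lost regions, and without the first 33.0% and 2.48%.

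**Figure D3:**
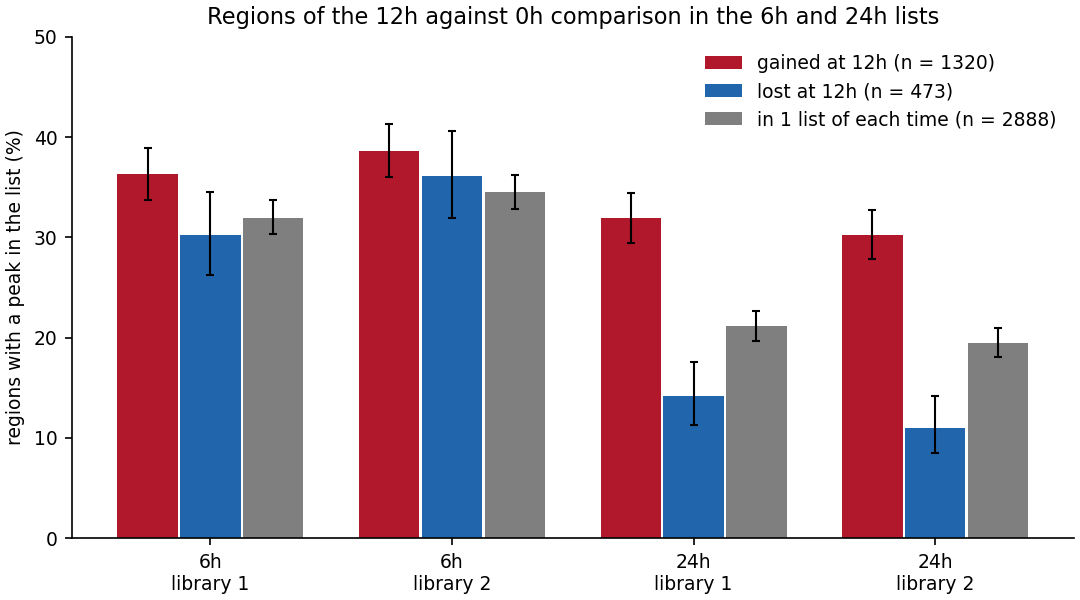
Share of regions with a peak in each list of 6h and 24h (vertical axis, percent), for gained, lost and 1-list-of-each-time regions of the 12h against 0h comparison; whiskers are 95% Wilson intervals for counting error. The 3 classes lie between 30.2% and 38.6% in the 6h lists, and in the 24h lists gained regions are at 31.9% and 30.2% and lost regions at 14.2% and 11.0%.

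Each region was given to the protein-coding gene with the nearest end within 100 kb. By this rule 1105 of 13385 genes with any region had a gained one (8.26%), 398 had a lost one (2.97%), and 40 had both. Genes of several of the lists have more regions than other genes, so gained and lost regions per 100 regions are given beside the counts. These rates were 4.32 and 1.47 over all genes. The balance of the gene counts also moved with the lists used. Over all genes 615 gained and 498 lost a region with lists of equal length, and 1546 gained and 2908 lost one without the second 0h library.

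Myeloid transcription factors had the highest gene count, with 9 of 30 genes gaining and 1 losing a region. The rates were 7.35 gained and 0.735 lost per 100 regions, at a median of 4 regions per gene against 1 over all genes. Irf8, a regulator of monocyte fate, gained a region 22.6 kb away with folds of 9.91 and 9.2 at 12h. Both 6h lists held a peak there and neither 24h list did. Spi1, which encodes PU.1, gained a region inside the gene (chr2:91089148-91089629) with 6.8 and 7.48 at 12h, called in both 24h lists with 6.06 and 4.41. Zeb2 gained one with 9.61 and 5.1, and Jun one 23.7 kb away with 7.97 and 4.65. The others were Cebpb, Cebpe, Klf6, Elf1 and Batf3. With lists of equal length 2 of 30 genes gained and 1 lost a region, and without the second 0h library 11 gained and 12 lost one. Without the first 0h library 16 gained and 2 lost one. The regions at Zeb2 and Jun were not called gained at equal length or at −log10 q of at least 5.

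Monocyte and macrophage genes gained at 6 and lost at 2 of 27 genes, at 7.79 and 2.6 per 100 regions. Csf2ra, the alpha chain of the GM-CSF receptor, gained a region 16.4 kb away with folds of 9.42 and 6.13 at 12h. Csf2rb, its signalling chain, gained one with 7.02 and 6.38. Clec12a, an inhibitory lectin of myeloid cells, gained a region (8.05 and 6.97) in the cluster that holds the leading lost region. Vcan gained one with 5.6 and 5.89. Cd86, a costimulatory ligand, lost a region with 7.38 and 6.74 at 0h, and Adgre1, which encodes F4/80, one with 4.2 and 6.31. With lists of equal length 4 genes of this list gained and 3 lost a region, and without the second 0h library 8 gained and 11 lost one. Without the first 0h library 12 gained and 4 lost one. The calls at Csf2ra and Adgre1 were not kept at equal length. Granulocyte genes gained at 2 and lost at 0 of 15 genes (9.09 and 0 per 100 regions), and at 2 and 4 without the second 0h library. They gained at 4 and lost at 0 of 13 genes without the first 0h library, and at 2 and 0 of 10 at equal length. Ltf, lactoferrin, gained a region 3.64 kb away with 7.81 and 9.62, called in both 6h lists, and Mmp8 is described above.

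Genes of leukaemic self-renewal had regions of both kinds, with 6 of 28 genes gaining and 3 losing one (3.85 and 1.92 per 100 regions). Mecom, a stem cell transcription factor, gained a region with folds of 7.84 and 5.19 at 12h. Myb gained one inside the gene with 6.06 and 6.14, and Runx1 one 41.4 kb away with 6.86 and 6.2. Meis1, the HOX cofactor, lost a region inside the gene (chr11:18883582-18884033) with 8.22 and 6.76 at 0h. Hoxa10 lost one 0.46 kb from the gene (chr6:52230420-52230805) with 3.53 and 4.72 at 0h, among the weakest peaks of the lists. Cdk6, a G1 kinase and target of the fusion, had a gained region (5.87 and 4.38 at 12h) and a lost region (4.06 and 5.91 at 0h), both inside the gene. Without the second 0h library 8 of 28 genes gained and 16 lost a region, and without the first 18 gained and 10 lost one. With lists of equal length 5 gained and 6 lost one. At equal length the regions named here at Mecom, Myb, Runx1, Hoxa10 and Cdk6 were not called, and that at Meis1 was.

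Cell cycle genes gained at 3 and lost at 4 of 28 genes (3.61 and 4.82 per 100 regions). Cdkn1a, the p21 inhibitor that KLF4 is known to activate in other cells, gained a region inside the gene with folds of 5.54 and 3.3 at 12h. The second 12h peak is among the weakest of its list, and the region was not called gained at equal list length or at −log10 q of at least 5. It was called in both 24h lists with 5.07 and 7.32. E2f7, a repressor of the E2F family, gained one 34.4 kb away with 6.36 and 4.3. Wee1, the kinase that restrains mitotic entry, lost a region 12.8 kb away with 7.95 and 5.72 at 0h. Ccne1 lost one 36.7 kb away with 6.4 and 6.32, and Ccnd2 one inside the gene with 6.59 and 5.15. The calls at E2f7, Wee1 and Ccnd2 were not kept at −log10 q of at least 5. With lists of equal length 1 of 28 genes gained and 5 lost a region, and without the second 0h library 6 gained and 12 lost one. Without the first 0h library 8 gained and 5 lost one.

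Apoptosis genes gained at 2 and lost at 3 of 26 genes (2.78 and 4.17 per 100 regions), and at 5 and 7 without the second 0h library. The gained regions were given to Bcl2l11, which encodes BIM (8.55 and 7.72 at 12h), and Casp8 (7.69 and 8.14). The region given to Bcl2l11 lay 71.0 kb from it, inside Acoxl, and that at Casp8 inside the gene. The lost regions included those 24.2 kb from Bmf, a BH3-only protein gene, and 14.5 kb from Tnfsf10, which encodes TRAIL. NF-kB genes gained at 2 and lost at 2 of 20 genes (4.08 each per 100 regions), with a region of each kind in Nfkb1, and without the second 0h library 2 gained and 6 lost one. Immediate early genes gained at 2 and lost at 0 of 20 genes (2.6 and 0 per 100 regions), and at 2 and 7 without the second 0h library. KLF and SP family genes gained at 3 (Klf6 at 56.7 kb, Klf13 at 60.5 kb and Sp2 inside the gene) and lost at 0 of 20. The rates were 5.36 and 0 per 100 regions, and without that library 5 gained and 4 lost one. Interferon genes had 0 gained and 0 lost regions in 14 genes, and without that library 0 gained and 5 lost one. Small GTPase and RGS genes gained at 6 and lost at 2 of 23 genes, among them Vav1, Vav3, Rhoh and Rgs3 on the gained and Rgs2 and Rgs10 on the lost side. The rates were 5.13 and 2.56 per 100 regions, and without the second 0h library 8 gained and 13 lost one. Adhesion genes gained at 3 and lost at 1 of 24 genes (3.57 and 1.19 per 100 regions), and at 5 and 8 without that library. Itgb2, the common beta chain of leukocyte integrins, gained a region with 9.65 and 8.41 at 12h that was called in all 4 of the 6h and 24h lists. Without the first 0h library gained and lost counts were 10 and 3 for apoptosis and 7 and 3 for NF-kB genes. They were 7 and 1 for immediate early and for KLF and SP genes, and 2 and 2 for interferon genes. For small GTPase and RGS genes they were 13 and 4, and for adhesion genes 9 and 3.

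B cell and erythroid markers had 0 gained and 0 lost regions in 5 genes each, and without the second 0h library 2 B cell and 3 erythroid markers lost one. T and NK cell markers had a gained region 3.49 kb from Eomes and a lost one 24.4 kb from Bcl11b. Pluripotency and epithelial genes had a gained one inside Cdh1 and a lost one 33.8 kb from Epcam. Without that library these lists lost at 4 and 6 of 11 genes and gained at 1 each. Megakaryocyte markers gained at 3 of 7 genes and lost at 1 (13.6 and 4.55 per 100 regions), and at 3 each of 6 without that library. Plek had 9.98 and 8.97 at 12h, Nfe2 had 5.18 and 6.08, and Vwf had both a gained (5.11 and 6.38 at 12h) and a lost region (8.15 and 8.6 at 0h). Stroma and endothelium markers gained at Lepr and Egfl7, 2 of 11 genes (9.09 and 0 per 100 regions), and without that library gained at 3 and lost at 4. The part of such cells in the sorted samples was not tested. Without the first 0h library gained and lost counts were 0 and 1 for B cell and for erythroid markers. They were 3 and 2 for T and NK cell markers and 2 and 1 for pluripotency and epithelial genes. For megakaryocyte markers they were 5 and 3, and for stroma and endothelium markers 3 and 1.

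Sipa1l2, a Rap GTPase-activating protein, had the most gained regions, 4, of which the strongest had folds of 9.33 and 8.49 at 12h. Timp2, an inhibitor of metalloproteinases, had 3, and 1 of them lay 0.109 kb from the gene start with 8.07 and 8.73 and was called in both 24h lists. Chd9, Cmip and Nln also had 3 each. No gene had more than 2 lost regions. Rgs2, which limits G protein signalling, had 2, with 8.54 and 8.34 and with 6.03 and 5.81 at 0h, both called in both 6h lists. A pair of lost regions was given to Mrpl39 but lies nearer to the start of Mir155hg, the host gene of miR-155, at 14.1 and 9.69 kb.

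The Klf4 gene itself kept its peaks. A region inside the gene (chr4:55530244-55530909) was called in all 4 lists, with folds of 6.05 and 7.57 in the 12h libraries, against 6.42 and 6.88 in the 0h libraries. Its within-list percentiles were 22.5 and 41.7 at 12h, against 32.2 and 39.0 at 0h. The other region, at the gene start (chr4:55532459-55533024), had 8.51 and 4.61 at 12h, against 5.59 in the first 0h library and no peak in the second. The construct may share exons with the gene, so reads inside it may come from either.

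Promoter windows were searched for the KLF element CACACCC on both strands, where its reverse complement reads GGGTGTG. Of 186 windows that gained regions overlap, 29 held it (15.6%, 95% interval 11.1 to 21.5). These 186 windows lay over 155 regions and belonged to 168 genes, and the 29 lay over 27 regions. The intervals cover counting error only and treat windows as separate, although some share a region and all share the libraries. Of 54 windows in lost regions 3 held it (5.56%, 1.91 to 15.1). The share was 7.73% in regions of all 4 lists, 7.31% in regions of 1 list of each time, and 8.0% of all 32619 windows. Regions in a single 12h list, which were not part of the gained set, had it in 13.2% (10.2 to 16.9) of 393 windows, and regions in a single 0h list in 8.87% (6.25 to 12.4) of 327. With −log10 q of at least 5 in all lists the share in gained regions was 9.9% of 202 windows and in lost regions 4.65% of 43. With lists of equal length it was 9.09% of 143 in gained and 7.07% of 99 in lost regions. Both settings drop weak 12h peaks and also let regions with a weak 0h peak be called gained. Without the first 0h library the shares were 10.9% in gained and 9.57% in lost regions, and without the second 14.1% and 7.86%. In 18 of the 186 windows (9.68%) the match lay inside the gained region itself, against 7.0% in regions of all 4 lists, which are wider. This share was 5.56% in lost regions, 6.62% in regions of a single 12h list and 3.67% in those of a single 0h list. A match is a run of letters and does not show that KLF4 was bound.

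The gained windows below are those of genes with a symbol of their own in which the match lies inside the region, so that the letters are part of the DNA that was called open at 12h. Each shows up to 20 bases to either side, and capitals mark the match.
Flt3l, chr7:45136383-45136421, minus strand: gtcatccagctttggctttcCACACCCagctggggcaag
Anxa7, chr14:20479894-20479940, minus strand: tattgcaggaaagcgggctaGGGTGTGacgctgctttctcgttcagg
Lipt1, chr1:37872120-37872166, plus strand: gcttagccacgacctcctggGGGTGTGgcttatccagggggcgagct
Pla2g4a, chr1:149961439-149961485, minus strand: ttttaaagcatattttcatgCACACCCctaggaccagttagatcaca
Kcnn4, chr7:24370027-24370073, plus strand: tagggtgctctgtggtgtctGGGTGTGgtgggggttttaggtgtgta
Hcst, chr7:30420025-30420071, minus strand: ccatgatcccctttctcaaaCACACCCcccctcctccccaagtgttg
Elf4, chrX:48463181-48463227, minus strand: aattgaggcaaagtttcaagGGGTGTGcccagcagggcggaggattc
Fah, chr7:84605938-84605984, minus strand: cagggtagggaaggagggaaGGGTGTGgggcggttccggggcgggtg
Dnase1l1, chrX:74281654-74281700, minus strand: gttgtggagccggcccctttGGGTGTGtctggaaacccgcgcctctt
Slc29a4, chr5:142701950-142701996, plus strand: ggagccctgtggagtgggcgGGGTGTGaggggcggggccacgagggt
Prdx2, chr8:84969500-84969546, plus strand: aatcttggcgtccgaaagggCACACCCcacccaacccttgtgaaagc

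Flt3l encodes the ligand of the FLT3 receptor, and its region had folds of 7.94 and 8.61 at 12h. Lipt1, a lipoyltransferase, had 5.74 and 7.3, and Kcnn4, a calcium-activated potassium channel, 5.85 and 5.94. Both were called in all 4 of the 6h and 24h lists. Pla2g4a, cytosolic phospholipase A2, had 6.21 and 6.04 and was called in both 24h lists. Elf4, an ETS factor, had 5.32 and 5.91, and Prdx2, a peroxiredoxin, 4.21 and 4.8, and neither was called in any 6h or 24h list. In the 27 gained regions with a match in a promoter window, 29.6% and 37.0% had a peak in the 24h lists, against 46.1% and 50.8% of the 128 gained regions over a promoter without one. The intervals overlapped in both lists. The 3 windows in lost regions are shown for contrast. Steap1 is a metalloreductase, Mexis a long non-coding RNA, and Csf2rb2 the mouse beta chain that serves IL-3 alone.
Steap1, chr5:5749387-5749433, minus strand: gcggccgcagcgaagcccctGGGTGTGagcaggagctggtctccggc
Mexis, chr4:53270322-53270368, minus strand: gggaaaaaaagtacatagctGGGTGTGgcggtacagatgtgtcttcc
Csf2rb2, chr15:78305838-78305884, minus strand: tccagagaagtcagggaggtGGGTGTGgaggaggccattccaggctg

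The other 5 elements were searched in the same way on both strands. The ETS element AGGAAGT was in 17.7% (12.9 to 23.9) of windows in gained and 14.8% (7.7 to 26.6) in lost regions, against 8.42% in regions of all 4 lists and 9.38% of all windows. The KLF variant CACGCCC was in 11.3% of gained and 9.26% of lost windows, in 19.3% of windows in regions of all 4 lists and in 8.5% of all windows. The RUNX element TGTGGT was in 18.8% of windows in gained and 11.1% in lost regions, in 11.3% in regions of all 4 lists and in 16.6% of all windows. Its share was 17.6% (14.1 to 21.6) in regions of a single 12h list. In regions of a single 0h list it was 14.1% (10.7 to 18.3), and the intervals overlapped. The AP-1 element TGANTCA was in 6.99% of windows in gained and 5.56% in lost regions, in 3.61% in regions of all 4 lists and in 7.85% of all windows. The C/EBP element TTGCNNAA was in 10.2% of windows in gained and 9.26% in lost regions, in 7.28% in regions of all 4 lists and in 10.9% of all windows. In regions of 1 list of each time the shares were 11.8% for ETS, 12.7% for the KLF variant and 14.9% for RUNX. There they were 8.25% for AP-1 and 8.02% for C/EBP. Like CACACCC and RUNX, AP-1 and C/EBP had a higher share in regions of a single 12h list than of a single 0h list. The ETS element and the KLF variant had a lower one. The intervals of these paired shares overlapped for each element. The median GC share of the windows was 57.7% in gained, 59.3% in lost and 63.0% in regions of all 4 lists, and 53.0% over all windows. The shares were not adjusted for it.

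**Figure D4:**
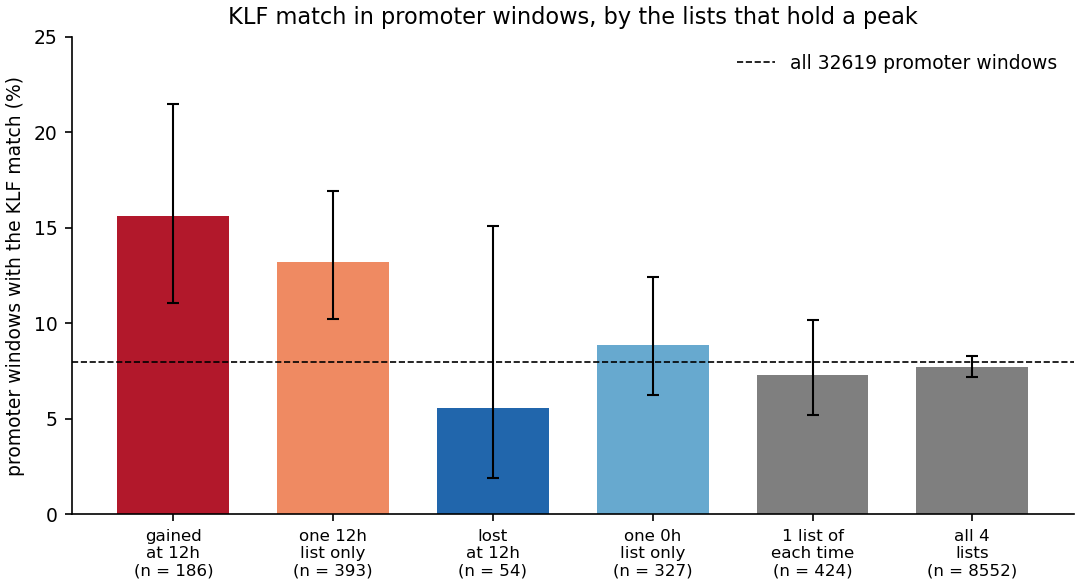
Share of RefSeq promoter windows with the KLF element on either strand (vertical axis, percent), by which of the 12h and 0h lists hold a peak. Whiskers are 95% Wilson intervals for counting error, with windows treated as separate. The dashed line is the share over all 32619 windows. Gained regions are at 15.6% and single 12h lists at 13.2%, and the other classes lie between 5.56% and 8.87%.

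In the 11490 regions called in all 4 lists the comparison was of rank. The within-list percentile of fold was higher in both 12h libraries than in both 0h libraries in 2206 regions (19.2%) and lower in 1494 (13%). Percentiles depend on the length of a list, and the median over these regions was 71.9 and 69.1 in the 12h lists against 72.0 and 61.8 in the 0h lists. Ranked among the 11490 regions alone, 1858 were higher (16.2%) and 1958 lower (17%) at 12h. The share of calls that were higher was thus 59.6% within lists and 48.7% among shared regions, and 1691 higher and 1377 lower regions were called both ways. If the 4 libraries were interchangeable, a share of 0.333 of the regions would be called higher or lower. The higher and lower shares together are near this value by either ranking. The counts therefore do not show by themselves that ranks changed at 12h. Near a gene end 15.2% (14.4 to 16.1) ranked higher and 16.7% (15.8 to 17.6) lower among shared regions. Farther from a gene end 17.6% (16.5 to 18.7) ranked higher and 17.5% (16.5 to 18.6) lower.

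The largest rises were at Fibcd1, Stim2, Fnbp1, Mcu, Cox17, Mtg2, Sgms1, Acad9, Morn2 and Henmt1, all called both ways. Stim2, a calcium sensor of the endoplasmic reticulum, had a region inside the gene with percentiles of 68.8 and 84.1 at 12h, against 15.0 and 18.1 at 0h. Mcu, the pore of the mitochondrial calcium uniporter, had percentiles of 80.0 and 82.8 at 12h, against 3.84 and 41 at 0h. At Cox17, a copper chaperone for cytochrome oxidase, the percentiles were 96.7 and 83.4 at 12h, against 30.0 and 35.3 at 0h. Acad9, an assembly factor of complex I, had percentiles of 83.0 and 79.6 at 12h, against 34.7 and 14.9 at 0h. Mtg2, a GTPase of the mitochondrial ribosome, had percentiles of 95.7 and 66.7 at 12h, against 32.4 and 15.4 at 0h. The ranges of the 2 times did not overlap at these regions, which is how they were chosen.

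The largest falls were at Xrcc2, Trdmt1, Pigl, Tk2, 1700017B05Rik, Mroh2a, Rnf130, Rab11fip4, Klf14 and a region 175.1 kb from any protein-coding gene end (chr4:89485948-89486419). Xrcc2, a gene of DNA double-strand break repair, had percentiles of 2.03 and 33.1 at 12h, against 84.1 and 67.8 at 0h. Tk2, the mitochondrial thymidine kinase, had 31.0 and 5.05 at 12h, against 55.7 and 72.8 at 0h. The region given to Mroh2a lies inside Hjurp, which encodes the chaperone of the centromeric histone CENP-A, with 21.3 and 2.54 at 12h, against 36.9 and 77.3 at 0h. The region 57.8 kb from Klf14 had percentiles of 10.2 and 34.7 at 12h, against 69.4 and 63.7 at 0h, and was called in no 6h or 24h list. Rnf130, a ubiquitin ligase, had percentiles of 30.7 and 37.4 at 12h, against 79.0 and 79.1 at 0h, and 63.9 and 56.8 at 24h.

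The 6h and 24h lists gave these rank differences little following. Of the shared regions, 9163 were called in all 8 lists, and the percentile was taken again among these. The 1778 regions called higher at 12h had medians of 61.8 and 64.4 at 12h, against 34.6 and 37.5 at 0h, which is fixed by their choice. Their medians were 47.6 and 45.7 at 6h and 48.5 and 49.5 at 24h. The 1168 regions called lower had 33.0 and 33.8 at 12h, against 56.0 and 70.4 at 0h. Their medians were 48.1 and 49.2 at 6h and 48.1 and 50.2 at 24h. The median over all 9163 is near 50.0 in each list. The higher minus the lower set came to 0.488 and -0.679 percentile points in the 24h lists and to -0.551 and -3.49 in the 6h lists.

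**Figure D5:**
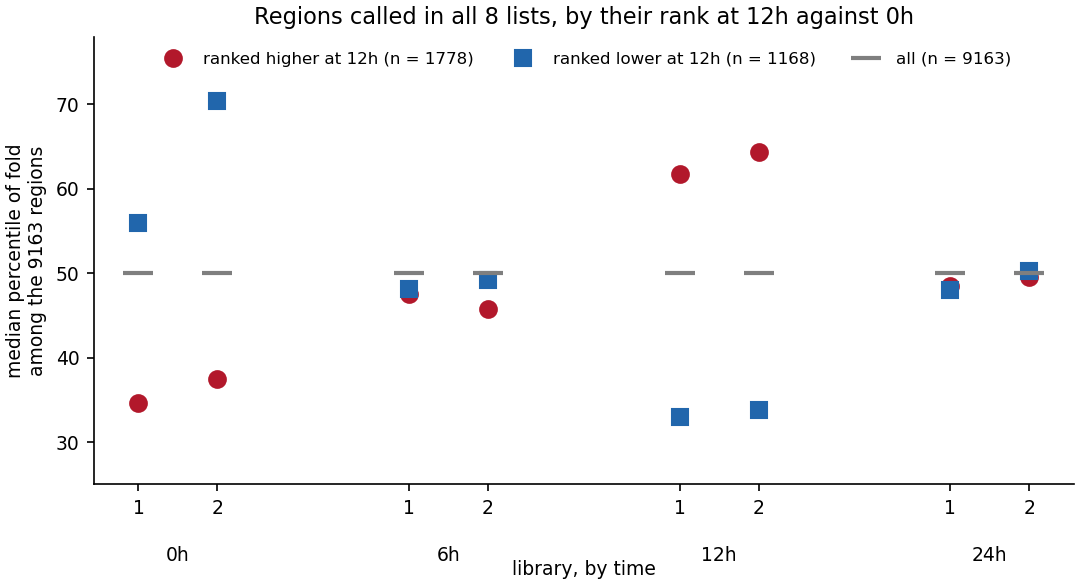
Median percentile of fold among the 9163 regions called in all 8 lists (vertical axis), for each library in order of time; red circles are regions whose within-list percentile was higher in both 12h than in both 0h libraries, blue squares those where it was lower, and grey bars all regions. The 2 sets stand apart at 0h and 12h, where they were chosen, and lie between 45.7 and 50.2 in the 6h and 24h libraries.

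Near the threshold of the calls, the weakest gained region lay 5.89 kb from Cmklr1, a chemoattractant receptor, with −log10 q of 4.95 and 2.04 at 12h. The region that missed a gained call by least lay 0.733 kb from Ndufa8, with 7.59 and 6.98 at 12h and 2.05 in the second 0h library. The weakest lost region lay 0.509 kb from Vsnl1, with 3.68 and 2.05 at 0h. The one that missed a lost call by least lay 0.542 kb from Rap1b, with 2.08 in the second 12h library and 5.71 and 4.46 at 0h. No peak of the 4 lists had a −log10 q under 2.0.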

How the data were processed

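The data are ATAC-seq peak lists, with a list for each library rather than for pooled samples. The tools were BWA, SAMtools and MACS2 and the build mm10, per the submitters' processing notes. Versions, settings, read shifting and duplicate handling were not given in the sources used here. Each peak's fold, a linear ratio of summit pile-up to local background, was deposited by the authors. The authors also deposited −log10 of the p-value and of the q-value per peak, as well as the summit offset and an integer score, which was not used. Total reads were not used here. Pile-up was recovered from fold and −log10 p as a whole number (tolerance 0.001) for 99.8% to 99.9% of peaks, and the lowest local background over the smallest peak width gave tags per kb. Peaks on Y, the mitochondrial chromosome and unplaced sequences were left out.

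Percentiles of fold were taken within each list, and also among the regions called in all lists, because ranks in lists of different length are not on 1 scale. A region belongs to the protein-coding gene (RefSeq, GRCm38) whose start or end lies nearest its strongest summit, within 100 kb. A distance to the transcript start alone was not used, since the promoter table gives a strand for 17274 of 21631 protein-coding genes (79.9%). It holds no promoter of 1 chromosome, so such promoters are not in the motif counts. Peak sequences were not used, as no genome sequence was at hand. Named were the 12 leading gained and 12 lost regions by mean percentile, 10 of each within 1 kb of a gene end, the 10 largest non-overlapping rises and falls among shared regions, the 5 genes with most gained or lost regions, up to 4 members of each of 18 gene lists (393 of 395 entries matched), Klf4, and the regions nearest the threshold. A few genes taken by this rule are not reported here. Members and lists were chosen with earlier results of these data known. Peak numbers were compared by a two-sided exact permutation test, and shares have 95% Wilson intervals. The code of the calls was run on simulated peak lists. These had no missed peaks and no difference in depth, so they do not tell how reliable the calls are. Alternatives were −log10 q of at least 5, equal list length, 50% cover, 200 bp summit windows, no peak within 500 bp, and each library left out. Python 3.11.15, pandas 2.3.3 and SciPy 1.17.1 were used.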

Additional observations from a re-analysis of the deposited data

How the results depend on the processing

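Gained and lost counts stayed within 1.5 times under 50% cover, 200 bp windows and the 500 bp distance. Equal list length gave 733 gained regions, and −log10 q of at least 5 gave 312 lost regions. With each library left out, gained regions ran from 1892 to 4293 and lost regions from 855 to 4003, since a call then needs fewer lists. Peak number at 12h minus 0h was 2111.5, and ran from -947.5 (without the second 0h library) to 5170.5 (without the first). Shared regions ranked higher ran from 3823 to 5967 and lower from 2910 to 5315 with a library left out. Under a replicate block (both same-numbered pairs in 1 direction) 3385 ranked higher and 2321 lower. The labels tie the numbers to no shared mouse or day, and same-numbered libraries deviated from their time means with r = -0.0118 across the 11490 regions. Near a gene end were 18.6% of gained and 16% of lost regions at equal length, 17.6% of gained and 18.8% of lost regions in windows, and 11.9% to 26.7% of gained and 10.2% to 15.7% of lost regions with a library left out. In both 24h lists were 32.2% of gained and 13% of lost regions at equal length, 9.6% of lost regions in windows, and 6.64% to 33.0% of gained and 1.42% to 14.5% of lost regions with a library left out. In both 6h lists were 27.7% of gained and 23.5% of lost regions at equal length, 19.4% of lost regions in windows, and 9.2% to 41.4% of gained and 4.0% to 25.6% of lost regions with a library left out. The cause of these moves was not tested. The share with CACACCC, an alternative chosen after seeing the data, ran from 9.09% to 15.3% in gained regions over 8 settings and from 4.65% to 9.57% in lost regions over 7. Of 124 named gained and lost regions, 80 kept their call at equal length, and 39 had a peak but not the call. The rest had no peak left in any of the 4 lists. No call has a test across libraries, and absence of a peak at this depth does not show closed chromatin.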

Other observations

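Of 140 microRNA hairpins within 1 kb of any region, 4 (2.86%) were near a gained and 3 (2.14%) near a lost region, against 4.39% gained and 1.57% lost among all regions. The gained region near the overlapping Mir129-2 and Mir129b had folds of 5.56 and 4.72 at 12h and no peak in any 0h, 6h or 24h list. A gained region near Mir7229 had 4.44 and 6.13 at 12h, and one near Mir425 4.49 and 5.74. The other locus of miR-129, Mir129-1, lay near a lost region, with no peak at 12h and 6.55 and 7.04 at 0h. Mir196b, which lies in the HoxA cluster, was near the lost region at Hoxa10, with no peak at 12h and 3.53 and 4.72 at 0h. These regions were looked for after the calls were known, and no test was made.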
